A study of Mus musculus with 778 samples.

Results

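GO3 oocytes are late growing oocytes of the mouse, defined by a diameter between 60 and 65 μm and hand-picked from ovaries of 3- to 4-week-old wild-type female ICR mice, an outbred strain. Their single-cell RNA-seq profiles were taken by the stage that the name of each cell carries, which gave 44 of the 223 oocytes in the count table. The other oocytes were 46 non-growing oocytes (NGO, under 20 μm, from mice of 3 to 4 days), 51 GO1 oocytes (30 to 45 μm), 26 GO2 oocytes (50 to 55 μm) and 56 fully-grown oocytes (FGO, over 70 μm), the last 3 stages from mice of the same age as GO3. All were wild-type ICR, without a treatment, so a comparison of GO3 with NGO is also one of age. The cells were sequenced in 4 libraries, which the labels title as batches. A cell cannot be tied to its library or mouse, so batch cannot be told apart from differences between stages or cells. Each stage was therefore 1 pooled sample, and differences between stages are sizes without a test.

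During growth, an oocyte arrested in meiotic prophase enlarges inside its follicle, builds the zona pellucida around itself and stores messenger RNAs and proteins that the egg and early embryo use after transcription stops. Transcription factors such as *Nobox* drive oocyte genes, and secreted factors such as *Gdf9* signal to the surrounding granulosa cells. DNA methylation of the oocyte genome is laid down de novo over the same period by *Dnmt3a* with its cofactor *Dnmt3l*.

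The table held counts of unique molecular identifiers (UMIs), tags that count each cDNA molecule once. GO3 oocytes carried from 232640 to 3549949 UMIs (median 972294) and from 8699 to 13379 detected genes, and their shallowest cell was deeper than the shallowest cell of the other 4 stages. Levels are given as UMIs per 1000000 (CPM) of the sum over the 44 cells, or of a single cell where the text says so. A level over the sum does not tell fewer molecules from a larger total, since every stage is scaled to the same total. A sum leans on its deepest cells, and the 10 deepest held 46.7% of the UMIs in GO3, but 80.4% in GO1 and 73.2% in GO2. Counting intervals are 95% intervals that cover counting error only.

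Both oocyte markers were present in 44 of 44 GO3 cells. *Nobox* reached 1745 CPM over the sum, the highest of the 5 stages, against 1658 CPM in FGO, 1244 in NGO, 1186 in GO2 and 897 in GO1. As a mean over cells it was 1663 CPM in GO3, 1374 in FGO, 1237 in NGO, 944 in GO2 and 419 in GO1. Its single-cell level ran from 586 to 2209 CPM with a median of 1735, and 41 of the 44 cells lay above the GO2 median of 990 CPM and 31 above the FGO median of 1557 CPM. The ranges of GO3 and FGO cells overlapped almost fully, and the ratio of their sums was 1.05 (counting interval 1.04 to 1.06). *Gdf9* stood at 4970 CPM in GO3, below FGO (5681 CPM) and GO2 (5524 CPM) and close to NGO (4919 CPM), with single cells between 2334 and 7207 CPM around a median of 4530. All 44 cells thus held both markers, at a level that differed several-fold between the lowest and the highest cell.

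Most markers of other ovarian cells were low, but several were found in many cells. Of 14 granulosa markers only *Serpine2* (399 CPM) and *Nr5a2* (12.04 CPM) reached 10 CPM in GO3, both in 44 of 44 cells. Below 10 CPM, *Cyp19a1* had a UMI in 44 cells, *Kitl* in 41 and *Fshr* in 37. In all cells together *Amh* had 1 UMI, *Foxl2* 7 UMIs and *Inha* 179, and 6 of the 14 had at most 10 UMIs. None of 10 theca and stroma markers reached 10 CPM, 7 had at most 10 UMIs, and *Col1a2* and *Lum* were at 0. *Acta2* had a UMI in 38 cells and *Cyp11a1* in 30. Of 10 blood and endothelial markers, *Pecam1* alone reached 10 CPM, at 48.8 CPM with a UMI in 43 cells. The endothelial gene *Cdh5* had 1 UMI and the leukocyte gene *Ptprc* 2, while *Cd68* had a UMI in 22 cells. Haemoglobin genes were listed at 0 in all stages, which carries little weight because the ribosomal protein gene *Rpl26* was listed at 0 in all stages too, and *Rpl30* and *Rps27* at 0 in GO3.

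Known oocyte genes stood among the most abundant transcripts of GO3. *H1foo*, the linker histone of the oocyte, led with 11723 CPM over the sum (single cells 8190 to 15080, median 11939). *Ldhb*, a lactate dehydrogenase subunit, followed at 10613 CPM, then the polyubiquitin gene *Ubb* at 8830 CPM and *Pttg1*, which encodes securin, at 8489 CPM. *Spin1*, encoding spindlin, stood at 7035 CPM and the histone H3.3 gene *H3f3b* at 6268 CPM. The remaining genes of the first 15 were *Gm15698* (6125 CPM), the F-box gene *Fbxw24* (6057 CPM), the cyclin-dependent kinase gene *Cdk7* (6018 CPM), *Zp3* (5594 CPM), *Gdf9*, *Fbxw14* (4708 CPM), the maternal factor gene *Dppa3* (4707 CPM), the planar polarity effector gene *Intu* (4688 CPM) and *Gm1821* (3782 CPM), annotated as a pseudogene. Reads of *Ubb* and *Gm1821*, and of *Fbxw24* and *Fbxw14*, may be split between near-identical copies, so these levels are uncertain.

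Few genes carried much of the RNA. The first 15 genes held 9.96% of the GO3 UMIs, the first 50 held 19.2% and the first 100 held 26.2%, and 505 genes held 50% of them. At the other end, 16976 genes had at least 1 UMI and 7177 reached 10 CPM. In single cells the share of the first 50 genes lay between 16.4% and 21.2%, with a median of 20.1%. These are counts of molecules and not divided by transcript length. Divided by the length of the longest transcript, 10 of the first 15 and 34 of the first 50 genes remained in the lists of the same size.

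**Figure D1:**
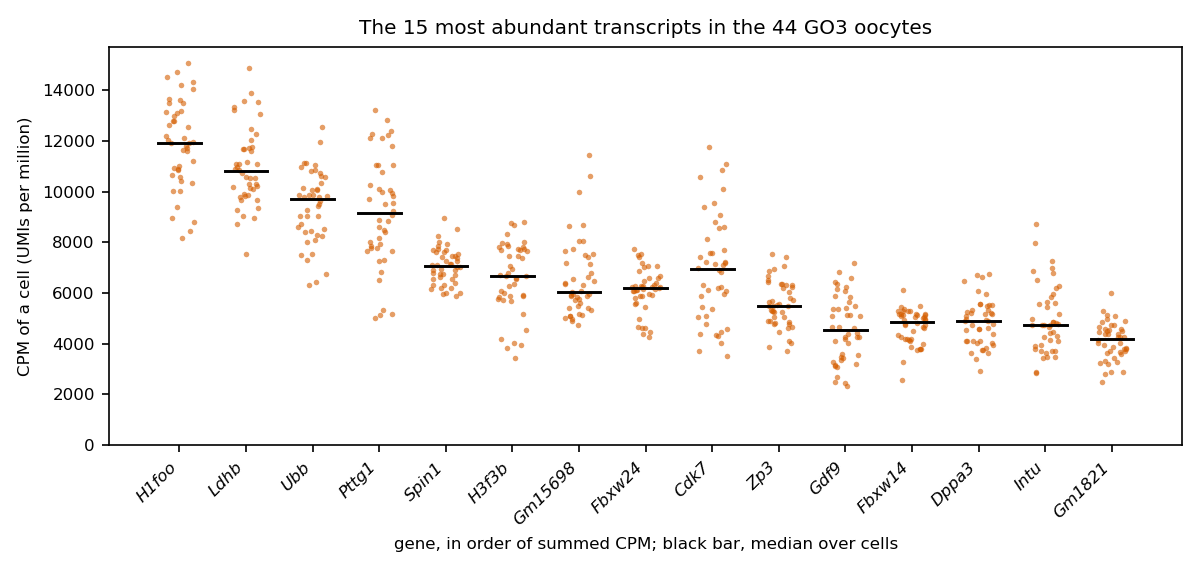
CPM of single GO3 oocytes (vertical axis) for the 15 genes with the highest sum over the 44 cells, each point 1 oocyte and each black bar the median. *H1foo* spans 8190 to 15080 CPM, *Spin1* is narrow at 5875 to 8974 CPM, and *Cdk7* is wide at 3510 to 11777 CPM.

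The plot shows that the 15 genes differed in steadiness. *Spin1* had a coefficient of variation (CV, the standard deviation between cells over the mean) of 0.1003 beyond counting error, *Ldhb* of 0.140 and *H1foo* of 0.146. *Cdk7* had 0.304 and *Gdf9* 0.283. The same genes led the neighbouring stages. The first 50 of GO3 shared 47 genes with the first 50 of GO1, 46 with GO2 and 43 with FGO, but 26 with NGO. Of the genes that set GO3 apart from NGO by level, *Pttg1* stood at 1428 CPM in NGO and *Fbxw14* at 918 CPM, whereas *Zp3* was lower in GO3 than in NGO (11226 CPM).

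Promoters are shown here for *Zp3*, a member of the abundant list with a function in the zona pellucida, and for *Nobox*, the marker that was highest in GO3. They are the 300 bases from 250 before to 50 after the start in RefSeq, build GRCm38.p6. *Zp3* lies at chr5:135979855-135980154 on the plus strand and *Nobox* at chr6:43309505-43309804 on the minus strand. Capitals mark matches on either strand to the E-box (CANNTG) or to TATAAA, which is the TATA motif, and the search also covered the NOBOX element (TAATTG). Matches that overlap were counted separately.
Zp3: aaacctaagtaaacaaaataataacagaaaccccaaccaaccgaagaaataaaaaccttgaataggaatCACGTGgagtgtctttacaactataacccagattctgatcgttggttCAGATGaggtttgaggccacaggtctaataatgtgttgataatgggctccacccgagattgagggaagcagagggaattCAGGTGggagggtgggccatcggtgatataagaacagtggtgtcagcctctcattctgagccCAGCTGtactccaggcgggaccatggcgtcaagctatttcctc
Nobox: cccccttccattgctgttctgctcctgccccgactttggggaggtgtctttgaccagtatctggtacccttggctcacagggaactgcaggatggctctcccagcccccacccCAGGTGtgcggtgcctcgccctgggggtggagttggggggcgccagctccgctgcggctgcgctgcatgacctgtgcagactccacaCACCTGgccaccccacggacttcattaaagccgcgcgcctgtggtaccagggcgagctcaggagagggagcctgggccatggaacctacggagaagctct
The *Zp3* window held 4 E-boxes and the *Nobox* window 2, and neither held TAATTG or TATAAA. Of 32851 promoters in the table, 23756 (72.3%) held an E-box, 2628 TAATTG and 4473 (13.6%) TATAAA. Of the 50 most abundant genes, 35 matched the table with 46 promoters, and 73.9% of these held an E-box, 6.52% TAATTG and 10.9% TATAAA.

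Groups of oocyte genes, listed with earlier results of these data known, were next read against all genes. In 1 stage or more 8671 genes reached 10 CPM, and 814 of them (9.39%) had their highest sum in GO3. Of the 260 such genes on 21 lists, 17 had it there, a share of 6.54% and so no more than among all genes, and no list member passed the rule of size given below. The 3 zona pellucida genes were all present, with *Zp1* at 1558 CPM and *Zp2* at 713 CPM next to *Zp3*. All 3 were highest in NGO, where 45.7% of all genes were. Of the oocyte-secreted factors, *Bmp15* stood at 598 CPM and *Fgf8* at 280 CPM, *Fgf8* being highest in GO3 by a small margin over FGO (268 CPM).

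The subcortical maternal complex, needed by the early embryo, was led in GO3 by *Khdc3* (3277 CPM), *Zbed3* (2917 CPM), *Nlrp5* (1764 CPM) and *Ooep* (1570 CPM), and 0 of its 7 genes were highest in GO3. Of 9 Nlrp oocyte genes, *Nlrp9b* was highest there (212 CPM, against 183 CPM in GO1), and *Nlrp14* led by level with 2211 CPM. Of 15 genes of the oogenesin, Oosp, Oas1 and *Tcl1* families, *Oog2* (312 CPM) and *Oog3* (3250 CPM) were highest in GO3. Single cells of *Oog3* ran from 1620 to 5164 CPM. Another 8 of the 15 were highest in GO2, where 9.25% of all genes were. Among 11 measured oocyte transcription factors, *Nobox* and *Gtf2a1l* (93.3 CPM) were highest in GO3, and *Figla* (102.3 CPM) and *Lhx8* (200 CPM) were highest in NGO. These groups were thus spread over the stages and had no common peak in GO3.

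Genes of DNA methylation were led by *Dppa3*, *Dnmt1* (865 CPM), *Zfp57* (365 CPM) and *Uhrf1* (254 CPM). Of the 13 measured, the oxidase gene *Tet1* was highest in GO3, at 11.2 CPM. *Dnmt3a* stood at 181 CPM with single cells from 101.6 to 389. *Dnmt3l* stood at 111.4 CPM, below GO2 (178 CPM) and above FGO (51.5 CPM). Of 13 measured genes of mRNA deadenylation and decay 0 were highest in GO3 and 9 were highest in GO1, where 23.8% of all genes were, with *Btg4* at 1236 CPM in GO3 against 1707 CPM in GO1. Among genes of meiotic arrest and resumption, which included *Ccnb1* (1512 CPM), *Arpp19* (763 CPM), *Mos* (730 CPM) and *Ccnb2* (600 CPM), 0 of 20 were highest in GO3. Immediate early and heat shock genes, which can rise when tissue is taken apart, were low except *Dnajb1* (725 CPM) and *Dusp1* (126.45 CPM), with *Fos* at 62 UMIs over all 44 cells.

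Among housekeeping complexes, 27 proteasome genes summed to 9452 CPM, and 3 of them, *Psma1*, *Psmb6* and *Psmd14*, were highest in GO3. Of 23 respiratory chain genes *Cox7c* (630 CPM) and *Cycs* (992 CPM) were highest there. Of the 72 measured ribosomal protein genes *Rpl35a* alone was, at 635 CPM, and 67 were highest in NGO, where 45.7% of all genes were. Of the other lists, *Igf2bp3* in mRNA storage (17 genes), *Tex12* in the synaptonemal complex (9 genes), *Cdh2* in the junctions with granulosa cells (7 genes) and *Pecam1* were highest in GO3, and 0 of 6 measured genes of fertilization and egg activation were.

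Very few genes stood clearly highest in GO3. A gene counted as highest there when its sum reached 10 CPM and was at least 1.5-fold above each of the other 4 stages, and 17 of 8671 genes did so, 0.196%. At 2-fold 1 gene was left, 0.0115%. By any margin, the peak fell in FGO for 11.9% of genes and in GO2 for 9.25%, next to the shares for NGO and GO1 given above. Most of the 17 were low, 13 of them under 50 CPM. A mean over single cells in place of the sum kept 9 of the 17 past the rule, thinning each cell to 20000 UMIs kept 8, and leaving the 10 deepest cells out of every stage kept 8.

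*Mov10*, an RNA helicase gene on chromosome 3 (104597754 to 104621481, minus strand, NCBIM37/mm9), had the largest ratio. Its level was 16.7 CPM in GO3 and between 7.22 and 8.30 CPM in the other stages, a ratio of 2.01 to the next stage, FGO (counting interval 1.80 to 2.24). On the log2 scale this is 1.01, and the value lay between 0.89 and 1.27 under the other scalings, averages and cell sets but at 0.38, under the 1.5-fold rule, in cells thinned to 20000 UMIs. Single GO3 cells ran from 2.62 to 38.7 CPM with a median of 16.5, and FGO cells from 0 to 28.3 CPM with a median of 5.49. The ranges overlapped, and 39 of 44 GO3 cells lay above the FGO median and 36 above the GO2 median of 6.85 CPM.

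*Adam10*, a membrane metalloprotease gene, was the most abundant of the 17, at 104.6 CPM against 64.3 CPM in FGO, 63.9 in GO1, 62.98 in GO2 and 31.6 in NGO. Its ratio to FGO was 1.63 (1.56 to 1.69), or 0.70 on the log2 scale. The ratio to the next stage did not pass the rule, with log2 values of 0.21 to 0.29, in means over cells, medians, sums without the 10 deepest cells and thinned cells, nor with DESeq2 size factors (0.58). Single GO3 cells lay between 40.4 and 404 CPM with a median of 109.3, 41 of them above the FGO median of 66.9 CPM. The GO1 median was nearer, at 92.6 CPM, with GO1 cells between 0 and 371 CPM. *Atxn1*, the ataxin 1 gene, stood at 75.3 CPM against 44.5 CPM in GO2, with single cells between 20.4 and 227 CPM. It did not pass the rule in medians (log2 of 0.49) or without the 10 deepest cells (0.49). The long non-coding RNA *Tug1* stood at 38.6 CPM against 24.8 CPM in GO1. It did not pass the rule with TMM factors (log2 of 0.55), with DESeq2 size factors (0.49) or without the 10 deepest cells (0.41). Of 44 GO3 cells, 43 lay above the FGO median of 12.1 CPM and 38 above the GO2 median of 21.8 CPM. These 4 genes overlapped between stages cell by cell, with a higher median in GO3. Genes past the rule were chosen by sums over the same cells. Higher medians and counts of cells above another median therefore follow in part from the choice.

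The other 13 genes that passed the rule had smaller ratios than *Mov10*. They were the non-coding transcripts *4930423M02Rik* (ratio 1.93) and *Gm12718* (1.72), the genes *1700010D01Rik* (1.72) and *Gm20356* (1.72), the ubiquitin ligase adaptor *Asb3* (1.73), the cyclin gene *Ccnj* (1.61), *Rbm15*, an adaptor of the RNA methylation machinery (1.59), and the zinc transporter gene *Slc39a9* (1.57). *1700010D01Rik*, on chromosome X, was above the FGO median in 44 of 44 GO3 cells and above the median of GO2, its next stage, in 39. The last 5 were *Cd40*, the kinase gene *Stk38l*, the imprinted gene *Phlda2*, the phosphatase gene *Pdp2* and the transporter gene *Abcc6*, with ratios of up to 1.53. Of the 17 genes 3, *4930423M02Rik*, *Slc39a9* and *Abcc6*, passed the rule under each of 6 alternatives, which were TMM factors, DESeq2 size factors, means, medians, sums without the 10 deepest cells and thinned cells. *Asb3* and *Gm12718* lost their peak in thinned cells. Of the 17 genes, 11 matched the promoter table with 12 promoters, 9 of which held an E-box and 0 TAATTG.

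**Figure D2:**
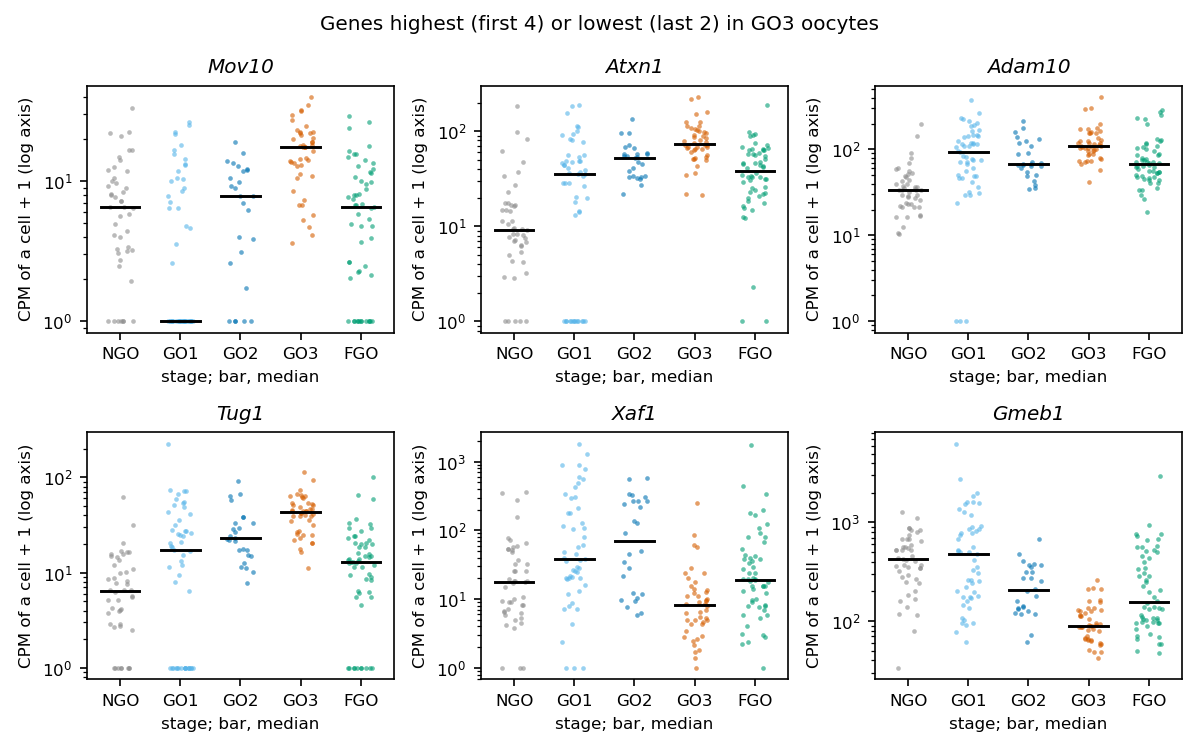
CPM of single oocytes plus 1 (log axis) by stage for 4 genes highest and 2 genes lowest in GO3, each point 1 oocyte and each bar the median. The GO3 medians of *Mov10*, *Atxn1*, *Adam10* and *Tug1* are 16.5, 72.7, 109.3 and 42.2 CPM, those of *Xaf1* and *Gmeb1* 7.18 and 88.5 CPM, and all 6 genes overlap between stages.

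The mirrored rule, at least 10 CPM in each of the other stages and at least 1.5-fold below each, took 25 of 6000 genes, 0.417%, and at 2-fold 5 genes, 0.0833%. *Xaf1*, encoding an apoptosis-associated factor (chromosome 11, 72115131 to 72127235, plus strand), showed the largest gap, at 9.73 CPM against 32.4 CPM in FGO, the lowest other stage, a ratio of 3.33 (3.02 to 3.68). Its GO3 cells ran from 0 to 245 CPM with a median of 7.18. Of the 44, 42 lay below the GO2 median of 69.8 CPM and 36 below the FGO median of 18.2 CPM. *Cdc5l*, a splicing factor gene, stood at 21.6 CPM against 59.7 CPM in GO2 (ratio 2.76), but 5 GO3 cells exceeded 5 times the GO3 median of 9.32 CPM, and the GO2 median of 8.85 CPM was no higher. The low sum of *Cdc5l* therefore did not hold for the middle cell.

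The other named genes of this kind passed the rule under each of the same 6 alternatives, as did *Xaf1* and, all told, 14 of the 25. *Gmeb1*, a DNA-binding modulator of glucocorticoid response, stood at 87.3 CPM against 163 CPM in FGO, and *Teddm1b* at 79.4 CPM against 181 CPM. *Chrna1*, an acetylcholine receptor subunit gene, stood at 18.1 CPM against 37.8 CPM in GO2. Of 44 cells, 41 lay below the FGO median and 37 below the GO2 median. *Bri3bp* stood at 6.20 CPM against 15.2 CPM in FGO, with 38 of 44 cells below the FGO median. Genes of the mirrored rule were also chosen by sums over the same cells, so these counts of cells follow in part from the choice.

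GO3 lies between GO2 and FGO in size, and its cells were placed on an axis of the genes that differ between these neighbours. For each cell the UMIs of 831 genes that were at least 2-fold higher in FGO than in GO2 were divided by those of 433 genes that were at least 2-fold higher in GO2, GO3 cells not being used to choose them, and the log2 of the ratio was taken as a score, whose 0 has no meaning of its own. GO3 cells ran from -0.56 to 1.24 with a median of 0.19. GO2 cells ran from -2.49 to -0.39 (median -1.27) and FGO cells from 0.80 to 3.92 (median 2.21). GO1 cells, smaller than either, ran from -1.81 to 1.54 (median -0.76), a range that covers that of GO3. The GO3 median lay 41.8% of the way from the GO2 to the FGO median.

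By this score most GO3 cells fell between the cells of GO2 and FGO. The genes of the score were chosen in the same GO2 and FGO cells, so the distance between these stages follows in part from the choice. Of the 44 cells, 33 lay above every GO2 cell and below every FGO cell, as did 10 of 51 GO1 cells, 5 at or below the highest GO2 cell, and 6 at or above the lowest FGO cell. NGO cells scored between 2.59 and 4.33, so the score does not order the 5 stages by size, and a place between GO2 and FGO is not particular to GO3. The score had a Pearson correlation of -0.074 with the log2 of the UMIs per cell over the 44 cells, a description over cells that share libraries.

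**Figure D3:**
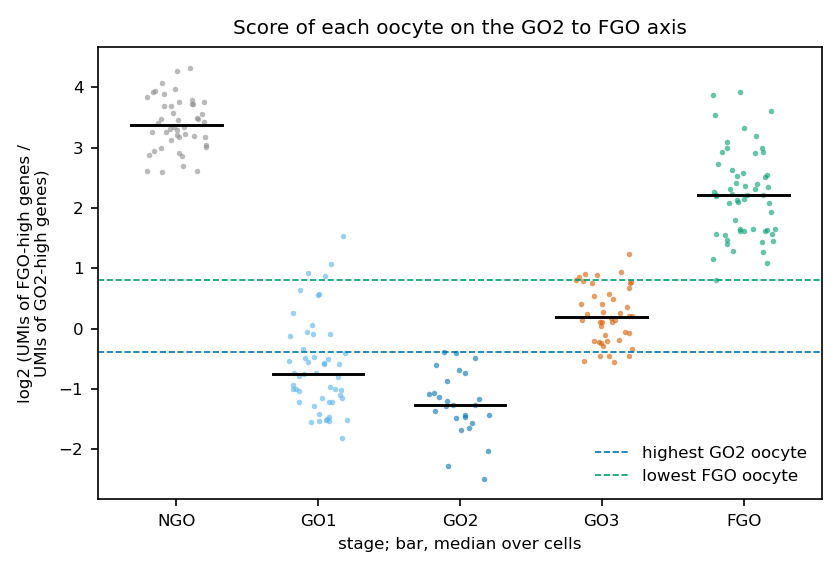
Score of each oocyte (log2 of UMIs of FGO-high genes over UMIs of GO2-high genes) by stage, each point 1 oocyte and each bar the median, with dashed lines at the highest GO2 and the lowest FGO oocyte. Of 44 GO3 oocytes, 33 lie between the lines, 5 at or below the lower and 6 at or above the upper, and 10 GO1 oocytes lie between the lines too.

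By gene, the level of GO3 lay between GO2 and FGO for 794 of the 831 FGO-high genes and 397 of the 433 GO2-high ones. Genes chosen for a step of at least 2-fold leave a wide range between GO2 and FGO, so a level in between is likely from the choice. Of the log2 step from GO2 to FGO, the GO3 level stood at 56.9% in the median FGO-high gene. In the median GO2-high gene it stood at 27.1% of the step. Examples from the gene lists, chosen after their values were seen, show both courses. *Nlrp5* went from 968 CPM in GO2 to 1764 CPM in GO3 and 2937 CPM in FGO. *Uqcrc1*, a core subunit gene of respiratory complex III, had 34.4, 91.5 and 166 CPM, and the oocyte transcription factor gene *Figla* from 58.8 to 102.3 and 170 CPM. *Cd9*, a membrane protein needed for sperm fusion, had 331, 620 and 749 CPM.

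Examples of GO2-high genes were the homeobox gene *Obox5*, with 663, 476 and 310 CPM in GO2, GO3 and FGO, and *Cnot7*, a deadenylase gene, with 469, 292 and 174 CPM. *Dnmt3l* belonged to the same kind, with its values given above. Over all 8671 genes, which were not chosen for such a step, 60.5% had a GO3 level between those of GO2 and FGO, and over the 260 list genes 56.2% did.

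When each cell was compared with the mean profile of each stage over 4519 genes, itself left out, 39 of 44 GO3 cells correlated best with GO3, 3 with GO1, 2 with GO2 and 0 with FGO. The 3 cells nearest GO1 were cells 20, 42 and 44, with 232640, 293514 and 298022 UMIs, among the shallowest GO3 cells, and the 2 nearest GO2 were cells 31 and 41. Without these 5 cells, 17 genes passed the rule for the highest level, all 17 of them the same genes.

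Variation between GO3 oocytes exceeded counting error for nearly every measured gene. Of 3428 genes with a mean of at least 50 CPM over the cells, the CV left after subtraction of the counting variance (the excess CV) had a median of 0.247 and quartiles of 0.188 and 0.323, against a median counting CV of 0.109, and it was larger than the counting CV in 3388 genes. It includes spread that arose in the preparation of the single-cell libraries. An excess CV of at least 0.5 was reached by 4.55% of the genes, and of at least 1 by 4 genes, whereas 40 genes stayed under 0.1.

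**Figure D4:**
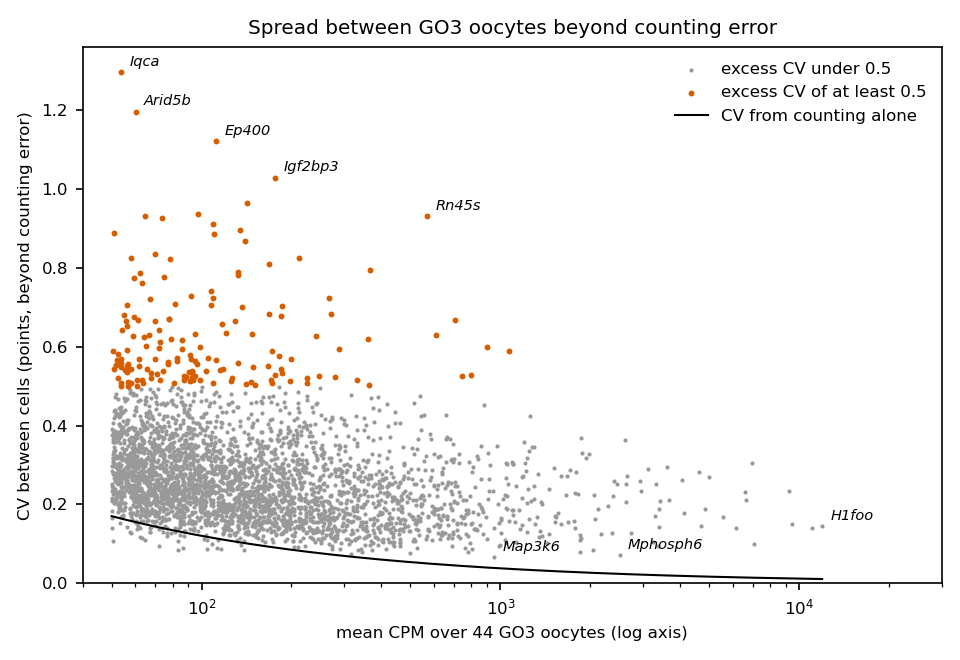
Excess CV between the 44 GO3 oocytes (vertical axis) against the mean CPM (log axis) for 3428 genes, with the genes at or above 0.5 in orange and the CV that counting alone would give as a line. *Iqca* (1.30), *Arid5b* (1.20), *Ep400* (1.12) and *Igf2bp3* (1.03) are highest, and *Map3k6* (0.067) is lowest.

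A few cells far above the median made several of the largest values. *Iqca*, a gene of the AAA ATPase class, had a median of 27.05 CPM, 3 cells over 5 times the median and a highest cell at 355 CPM. *Ep400*, a chromatin remodelling subunit gene, had a median of 77.9 CPM and a highest cell at 760 CPM. *Igf2bp3*, encoding an mRNA-binding protein, ran from 19.6 to 941 CPM with a median of 108.96. The transcriptional coregulator gene *Mn1* ran from 13.4 to 320 CPM with a median of 43.2. In these 4 genes and in *Arid5b* the highest cell was cell 32, which had 787641 UMIs.

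*Igf2bp3* was the list gene most affected, since its sum was highest in GO3 (172 CPM against 145.3 CPM in NGO) while its GO3 median was below the NGO median of 144.3 CPM. Among the remaining genes of the most variable 12, *Txndc5*, a disulfide isomerase gene, reached 797 CPM over a median of 110, *Dnajc21*, a co-chaperone gene, 880 CPM over 106.1, and the dynactin gene *Actr10* 218 CPM over 33.7, each in a different cell. *Tceal8* spread over many cells, from 2.39 to 419 CPM with a median of 80.5. The ribosomal RNA precursor *Rn45s* ran from 95.1 to 2764 CPM with a median of 386, its highest cell being cell 20.

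Of the genes with an excess CV of at least 0.5, 38 had their highest value in cell 28, 25 in cell 16 and 22 in cell 32. Cell 28 was the second shallowest, with 235417 UMIs, and cells 16 and 32 had 2296724 and 787641. Without these 3 cells, an alternative chosen after the values were seen, 2.99% of genes reached 0.5, and 1 of them had not done so in all cells. Without the 10 shallowest cells 77 genes did, 2.22%, and a spread based on the median absolute deviation, which gives single cells little weight, left 72, 2.10%. With every cell thinned to 200000 UMIs 4.68% of genes did, 130 of them also past 0.5 at full depth, so that the share was about as large at equal depth.

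At the steady end stood the kinase gene *Map3k6* (excess CV 0.067, single cells 740 to 1112 CPM), *Mphosph6*, an RNA exosome cofactor (0.071, 2179 to 3162 CPM), the nucleoporin gene *Nup35* (0.076, 251 to 400 CPM), the mitochondrial gene *Cisd1* (0.077), the translation initiation factor gene *Eif5* (0.080) and the mediator gene *Med28* (0.080). No steady gene held a cell over 5 times its median. As a group, the proteasome was even, its sum per cell lying between 8295 and 11131 CPM with an excess CV of 0.066. The sum of the genes for mRNA storage and translation control varied most among the oocyte lists, from 2107 to 7938 CPM, an excess CV of 0.299.

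The leading direction of variation among GO3 cells moved with ribosomal protein transcripts and depth. The first principal component of log2(CPM + 1) over the 3428 genes held 32.8% of the variance, and the second 8.40%. Over the 44 cells it correlated with the summed ribosomal protein CPM at a Pearson r of -0.91 (Spearman -0.86), with log2 UMIs at 0.58 (0.51) and with the growth score at 0.062 (-0.0087), all descriptions over cells that share depth and libraries. Ribosomal protein genes summed to 17969 to 33691 CPM per cell, with a median of 21443, and 64 of the 69 in the fit loaded on the negative side, as did 41.5% of the 3428 genes. Of the 100 most negative loadings 4 were of ribosomal protein genes.

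The largest positive loadings were those of *Tbc1d10a*, a GTPase-activating protein gene, *Pias4*, a SUMO ligase gene, *Abhd16a*, a lipase gene, *Pex14*, a peroxisome import gene, and *Rnf187*, a ubiquitin ligase gene. Their single-cell levels fell to 0 CPM in the lowest cell for *Tbc1d10a*, *Abhd16a* and *Rnf187* and reached 120, 216 and 236 CPM in the highest, cell 16 in each case. The largest negative loadings were those of *BC100530*, *Aig1*, *Gm12338*, *Spata24* and *Gm10033*. *Aig1*, a membrane hydrolase gene, ran from 165 to 1172 CPM, and its highest cell was cell 42, a shallow one. Depth moved with this component, and its part in it was not tested.

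Compared with the other stages at the same depth, GO3 cells differed least from each other. With every cell thinned to 50000 UMIs and 616 genes of at least 200 CPM in every stage, the median excess CV was 0.189 in GO3, 0.205 in NGO, 0.249 in FGO, 0.329 in GO2 and 0.335 in GO1, where 13 shallower cells were left out. Without thinning the medians were 0.192, 0.204, 0.251, 0.334 and 0.383 in the same order of stages. The quartiles of the thinned cells overlapped, at 0.136 and 0.258 in GO3 and 0.156 and 0.268 in NGO. With 1 pooled sample per stage the difference in spread has no test. Stages differ in the range of diameters, which was narrower for GO2 and GO3 than for GO1. They also differ in depth before thinning, with a shallowest cell of 232640 UMIs in GO3, 51400 in NGO, 95108 in GO2 and 61555 in FGO. The part of either in the spread was not tested.

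A few genes had a wide gap in level between a low and a high set of GO3 oocytes. This search was added after the data were seen and took the widest gap between neighbouring cells on the log2(CPM + 1) scale, with at least 8 cells on each side. Every gene has such a gap, with no cell in it by construction, and only its width sets genes apart. Of the 3428 genes 3 had a gap of at least 1 and 6 of at least 0.7. *H2-T10*, a class I histocompatibility gene annotated as a polymorphic pseudogene (chromosome 17, 36252821 to 36258410), lay at 14.8 to 31.1 CPM in 19 cells and at 76.5 to 228 CPM in 25. *Slc23a3*, a gene of the ascorbate transporter family (chromosome 1, 75122117 to 75130464), lay at 11.8 to 35.8 CPM in 18 cells and at 87.2 to 391 CPM in 26. *Arid5b*, a DNA-binding protein gene (chromosome 10, 67558341 to 67741474), lay at 0 to 11.1 CPM in 24 cells and at 27.4 to 204 CPM in 20.

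For most of these genes the sets nearly coincided, also between chromosomes. *Anxa5*, encoding a calcium-dependent phospholipid-binding protein (chromosome 3, 36347847 to 36374765), was high in the same 25 cells as *H2-T10*, at 47.002 CPM or more against 28.5 CPM or less. *Slc23a3* differed from *H2-T10* in 1 cell. So did *Gm8801*, a pseudogene near *H2-T10* on chromosome 17 (36084191 to 36089242), whose reads may be shared with related genes. The 20 cells high in *Arid5b* all belonged to the 25. In all, 19 cells were high in the 5 genes and 18 low in the 5. The 5 were kept because their sets differed little from that of *H2-T10*, so this agreement follows in part from the choice. *Pias4*, the remaining gene with a gap of 0.7 or more, differed from *H2-T10* in 20 cells and was left out.

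**Figure D5:**
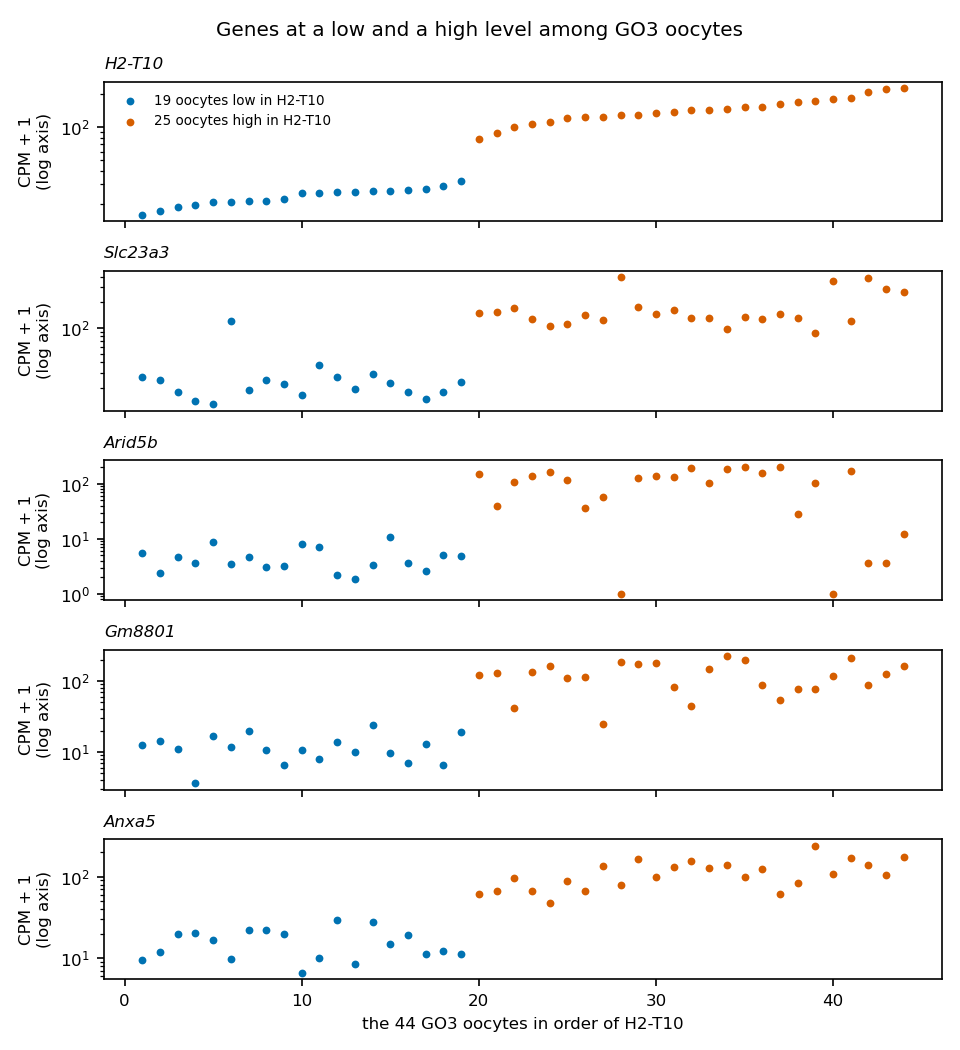
CPM plus 1 (log axis) of 5 genes in the 44 GO3 oocytes, ordered from left to right by *H2-T10*, with the 19 oocytes low in *H2-T10* in blue and the 25 high in orange. *Anxa5* separates the same 25 cells, *Slc23a3* and *Gm8801* differ in 1 cell each, and *Arid5b* is low in 5 of the 25.

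The median growth score was 0.17 in the 25 high cells and 0.20 in the 19 low ones, and its relation to the sets was not tested. UMIs per cell ran from 232640 to 3291373 in the high cells (median 714311) and from 255053 to 3549949 in the low ones (median 1142366). The library and the mouse of a cell cannot be told from the table, so neither was tested against the sets. Since the gap was chosen in GO3, the other stages can be set beside it only as values. *H2-T10* was at or above the GO3 high side in 18 of 26 GO2 cells, 26 of 51 GO1 cells, 20 of 56 FGO cells and 0 of 46 NGO cells, and the gap held 1 GO2, 7 GO1, 14 FGO and 2 NGO cells. *Slc23a3* reached the GO3 high side in 44 of 46 NGO cells, 17 of 26 GO2 cells and 29 of 56 FGO cells.

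Promoters are shown for the genes of this set that the RefSeq table holds, because their transcripts went together across cells, again with E-box and TATAAA matches in capitals and in build GRCm38.p6. All 3 lie on the minus strand, *Slc23a3* at chr1:75133841-75134140, *Anxa5* at chr3:36475838-36476137 and *Arid5b* at chr10:68278677-68278976.
Slc23a3: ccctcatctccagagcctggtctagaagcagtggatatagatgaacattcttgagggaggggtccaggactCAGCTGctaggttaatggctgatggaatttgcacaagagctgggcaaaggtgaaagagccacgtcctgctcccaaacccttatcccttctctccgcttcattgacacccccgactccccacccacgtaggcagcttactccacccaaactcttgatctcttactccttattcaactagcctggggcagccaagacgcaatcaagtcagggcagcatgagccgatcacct
Anxa5: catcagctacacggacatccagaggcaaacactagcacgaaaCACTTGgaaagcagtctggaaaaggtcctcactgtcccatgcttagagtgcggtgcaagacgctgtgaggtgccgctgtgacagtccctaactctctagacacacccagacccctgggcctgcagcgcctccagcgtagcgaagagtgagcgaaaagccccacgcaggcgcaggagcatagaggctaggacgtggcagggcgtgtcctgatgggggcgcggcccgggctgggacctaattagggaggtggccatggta
Arid5b: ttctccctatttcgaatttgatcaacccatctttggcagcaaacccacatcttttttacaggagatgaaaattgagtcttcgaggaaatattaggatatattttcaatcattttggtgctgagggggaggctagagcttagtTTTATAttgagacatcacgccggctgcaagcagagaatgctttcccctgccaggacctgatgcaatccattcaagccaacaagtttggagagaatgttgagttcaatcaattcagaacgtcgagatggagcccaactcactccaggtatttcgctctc
*Slc23a3* and *Anxa5* held 1 E-box each and *Arid5b* 0, and *Arid5b* held 1 TATAAA, so the 3 windows shared none of the searched motifs. *H2-T10* and *Gm8801* had no entry.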

How the data were processed

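Oocytes were picked singly, and their cDNA was tagged with cell barcodes and UMIs. The authors sorted reads by barcode, aligned them with Tophat 2.0.12 to the mm9 transcriptome, removed duplicate UMIs and deposited raw UMI counts per gene and cell, without normalization. They kept cells with over 3000 genes and 20000 to 4000000 transcripts and removed cells with a high ERCC ratio. The table held 23201 genes and 223 cells. The iscCOOL-seq samples were not analysed here, and the deposited barcode list was not used because it names no cell.

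For each stage the UMIs of a gene were added up and scaled to a total of 1000000 (CPM). Sums carry exact Poisson intervals and ratios exact binomial ones, and amplification error is not covered. The variance between cells minus the mean Poisson variance gave the excess CV. No p-value was computed, since a stage was 1 sample. No doublet caller was run on hand-picked cells. The size rule and the excess CV were tried on simulated counts. For the size rule these held counting error only, without spread between cells, so they do not cover sums that lean on a few deep cells.

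The genes, lists and rules were chosen with earlier results of these data known. Named were the 15 most abundant genes, the 12 with the largest ratio to the next stage and the 6 with the largest deficit, both past the 1.5-fold rule and with the same extreme in the mean over cells, the 12 most variable and 6 steadiest, 5 at each end of the first component, the markers and up to 4 leading genes of each list. Other names are those of single or few genes in a count, chosen after their values were seen. Alternatives were TMM factors (edgeR 4.0.16), size factors (DESeq2 1.42.0), means or medians over cells, no deepest cells, thinning, other limits on CPM and fold, and NGO left out. Gene positions follow GENCODE vM1 (NCBIM37). Scripts ran in R 4.3.3 and in Python 3.11.15 with scipy 1.17.1, pandas 2.3.3, numpy 2.4.6 and matplotlib 3.10.9.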

Additional observations from a re-analysis of the deposited data

How the results depend on the processing

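The number of genes highest in GO3, 17, was 27 in means over cells (9 shared), 55 in medians (13 shared), 96 in cells thinned to 20000 UMIs, 542 without a filter on low counts, 4 at 50 CPM and 1 at 2-fold. The number lowest in GO3, 25, was 58 in thinned cells, 379 without a filter, 13 at 50 CPM and 5 at 2-fold. Without the 10 deepest cells 25 genes were highest, 8 of them shared, and 37 lowest, 22 shared. TMM factors shared 15 and DESeq2 size factors 12 of the 17. Both counts stayed within 1.5 times under these, with NGO left out and, added after the data were seen, without the 3 or the 5 cells named in the report. The log2 ratio of *Asb3* to the next stage became -0.27 and that of *Gm12718* -0.22 in thinned cells, and that of *Cdc5l* to the lowest other stage 0.074 in medians. Thinned stages hold fewer UMIs, which widens counting error at 10 CPM, and the cause of the other shifts was not tested. The share of the first 50 genes was 19.7% in means over cells, 19.9% without the deepest cells, 19.7% in thinned cells and 25.99% per kilobase. The share of genes with an excess CV of at least 0.5, 4.55%, became 2.22% without the 10 shallowest cells, 2.10% by the median absolute deviation, 1.94% at 200 CPM and 2.99% without 3 cells, and was 4.68% in thinned cells, 4.79% with median-of-ratios factors, 4.88% without the 10 deepest cells and 3.73% without 5 cells. Of the list genes, 11 in place of 17 were highest in GO3 in means over cells. The GO3 median score lay 41.8% of the way from GO2 to FGO, and 41.7% with 1.5-fold lists, 40.9% in thinned cells, 38.2% with lists from means over cells and 43.3% without the 5 cells, the 3 medians being taken anew each time. No paired analysis was possible because no cell is tied to a numbered library.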

Other observations

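Some genes outside the oocyte lists showed a level in GO3 oocytes that their name would not lead one to look for, and were picked after their values were seen. *Cyp19a1*, the aromatase gene of granulosa cells, had a UMI in 44 of 44 GO3 cells at 6.70 CPM over the sum, against 16.3 CPM in GO1, 13.3 in GO2 and 1.54 in FGO. *Fshr*, the receptor for follicle-stimulating hormone, had a UMI in 37 of 44 cells at 5.02 CPM. In the same cells *Amh* had a UMI in 1 cell, *Foxl2* in 3 and *Inha* in 21, and whether the reads came from the oocytes or from attached cells was not tested.

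The 5 GO3 cells nearest to another stage by profile had low growth scores. Cells 20, 41, 42, 44 and 31 scored -0.46, -0.56, -0.19, -0.22 and -0.29, all below the GO3 median of 0.19. The 3 highest sums of ribosomal protein transcripts were in cells 43 (33691 CPM), 44 (32118 CPM) and 42 (31426 CPM), which had 381196, 298022 and 293514 UMIs.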
